A study of Mus musculus with 6 samples.

Results

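Splicing regulators were examined in fetal liver (FL) progenitor cells deficient in hnRNP L. The group held 41 of the 38293 genes counted, taken by gene name and family with earlier results of these data known. It was made of 18 members of the hnRNP family other than *Hnrnpl* and *Hnrnpll*, 12 SR proteins including *Tra2a* and *Tra2b*, and 11 further RNA-binding regulators of the CELF, MBNL, RBFOX, PCBP, TIA and ELAVL families together with *Rbm39*. RNA was sequenced from FL cells of C57BL/6 embryos at E14.5, with 3 wt embryos and 3 hnRNP L deficient (KO) embryos. Per the methods of the study the cells were sorted as Lin- c-Kit+, and the KO embryos were VavCre+ hnRNP L fl/fl, so that the Cre recombinase was driven by a promoter active in hematopoietic cells. The labels call the tissue whole embryo and the source FL cells. Gene counts came from 6 libraries and exon bin counts from 5 (3 wt and 2 KO), since exon bins of KO 1 were not analysed here.

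hnRNP and SR proteins bind nascent transcripts and set which splice sites are used. SR proteins mostly bind exonic enhancers and favour the inclusion of exons, whereas many hnRNPs, hnRNP L among them, can silence exons. Many of these genes regulate their own mRNA. They splice in a poison exon, which carries a stop codon in frame, or keep an intron, and the resulting transcript is degraded by nonsense-mediated decay (NMD). Such exons are therefore sparsely covered in steady state mRNA.

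The sequences below belong to member exon bins that are named further on, whether or not their usage differed between groups. An exon bin is a stretch of exon between neighbouring annotated exon borders, and the sequences were read from GENCODE transcripts of GRCm38, 5′ to 3′ on the strand of the gene. The first is 115 bases of *Srsf4*, bin 3 and the start of bin 4, which lie only in an NMD transcript, at chr4:131884276-131884390 on the plus strand, shown because it carries the annotated premature stop codon (capitals).
Srsf4 poison exon: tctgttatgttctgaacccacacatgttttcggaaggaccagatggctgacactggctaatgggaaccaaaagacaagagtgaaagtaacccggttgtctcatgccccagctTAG

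*Tra2b* bin 17 is an exon of 276 bases, chr16:22258986-22259261 on the minus strand, which lies only in transcripts annotated without a coding sequence. Tra2 proteins are known to bind AGAA motifs, which are in capitals.
Tra2b bin 17: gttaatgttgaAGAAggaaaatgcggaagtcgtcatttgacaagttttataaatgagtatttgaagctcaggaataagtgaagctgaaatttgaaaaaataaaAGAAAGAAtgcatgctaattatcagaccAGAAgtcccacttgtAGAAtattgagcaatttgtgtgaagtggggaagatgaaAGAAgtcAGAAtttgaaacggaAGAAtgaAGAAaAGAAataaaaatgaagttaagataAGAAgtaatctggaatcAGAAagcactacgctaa
The letters AGAA stood at 12 places of this exon on the strand of the gene. Of 8197 noncoding bins of 200 to 350 bases from all genes, 9 (0.11%) held at least 12 such matches. *Srsf10* bin 7 and *Hnrnpk* bin 42 are sparsely covered bins that carried more reads in the KO libraries. The first 60 bases of each are given, and both began with GTAAGT (capitals), the letters of a strong 5′ splice site, directly after the preceding bin.
Srsf10 bin 7, chr4:135858472-135858531, plus strand: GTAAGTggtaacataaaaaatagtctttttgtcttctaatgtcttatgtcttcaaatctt
Hnrnpk bin 42, chr13:58399096-58399155, minus strand: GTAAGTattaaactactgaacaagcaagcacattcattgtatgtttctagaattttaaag
*Hnrnpk* bin 42 (430 bases in all) followed a coding exon and lies only in a retained intron transcript. *Srsf10* bin 7 (330 bases in all) followed a noncoding extension of a coding exon. The letters CACACA, of the CA-rich kind that hnRNP L is known to bind, did not occur on the gene's strand in either bin, and occurred in 730 of 5133 noncoding bins of 300 to 450 bases (14.2%).

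Libraries held between 55952160 and 76157226 reads on genes, so that 3 reads made up 0.0536 CPM or less (counts per 1000000 reads, scaled to the normalized library size). *Hnrnpl*, the check of the labels, was at 528 to 552 CPM in wt and at 242 to 288 CPM in KO libraries (log2 fold change -1.01, edgeR adjusted p = 0.00724). Reads on *Hnrnpl* thus remained in every KO library. The paper raises the possibility that incompletely deleted cells with residual protein made splicing changes hard to detect. This limit applies to the results below, and the amount of protein left was not tested here. *Kit* was at 423 to 656 CPM in wt and at 325 to 368 CPM in KO libraries. Of 52 tested markers of blood, liver and vessel cell types 12 were lower in KO and none was higher by the same test. Over all genes 9.85% were lower and 9.32% higher. The 12 markers held 5 of 7 stem and progenitor genes, 3 of 6 monocyte genes and 1 of 8 erythroid genes. The rest were 1 of 5 megakaryocyte genes, 1 of 5 hepatocyte genes and 1 of 5 endothelial and stromal genes. None of the granulocyte, mast cell, B, or T and NK markers passed the test. Granulocyte markers summed to 7973 CPM in wt 2, 559 and 1443 CPM in wt 1 and wt 3, and 236 to 781 CPM in KO libraries. In bulk RNA, fewer cells of one type and less RNA per cell cannot be told apart.

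The 41 regulators together took 22727 CPM in wt 1, 20175 in wt 2 and 20279 in wt 3, against 23353, 22775 and 22928 CPM in KO 1 to 3. The level of wt 1 thus lay close to that of the KO libraries, and 29 of the 41 members had their highest wt level there. Per kilobase of annotated exon, the highest hnRNP levels in wt belonged to *Hnrnpab* (413 ± 50.7 CPM per kilobase, SD, n = 3), *Hnrnpa2b1* (350 ± 14.96) and *Hnrnpa1* (240 ± 48.3). Differences in level between genes were not tested. *Srsf2* (306 ± 17.5), *Srsf1* (187 ± 16.6) and *Srsf6* (135 ± 2.52) led the SR proteins, and *Pcbp1* (302 ± 28.1), *Pcbp2* (130 ± 6.91) and *Rbm39* (64.8 ± 3.78) the other regulators. The lowest level was that of *Rbfox2* (0.332 ± 0.0554).

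To ask whether loss of hnRNP L changed the expression of other splicing regulators, members were taken from a test over all genes (edgeR quasi-likelihood test, Benjamini-Hochberg adjustment, adjusted p under 0.05). All 41 were tested, and 5 passed, 1 higher and 4 lower in KO. Over all 14396 genes tested 19.2% passed, 9.32% higher and 9.85% lower. The 5 belonged to the group of other regulators, and none of the 18 hnRNP family genes and 12 SR protein genes passed. This contrast between families depended on the setting. None of these genes passed with median-of-ratios factors, without a filter, at a mean of at least 1 CPM, or without wt 2. With total counts 1 passed (*Hnrnpul2*, lower in KO). DESeq2 called 3 hnRNP and SR genes (*Hnrnpa0*, *Srsf2* and *Hnrnpm*). Limma-voom, run throughout with sample weights so that libraries can count unequally, called 11, and so did the edgeR fit without wt 1. All of these were higher in KO. In the main test 4 of the 18 hnRNP family genes and 2 of the 12 SR protein genes had an unadjusted p under 0.05. Over all genes 5417 of 14396 did. The median log2 fold change was 0.10 for the members and -0.03 over all genes, and 30 of the 41 members had a positive value against 47.5% of all genes. Scaled to total counts, 22 of 41 had a positive value, and among hnRNP and SR genes 16 of 30 in place of 23.

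**Figure D1:**
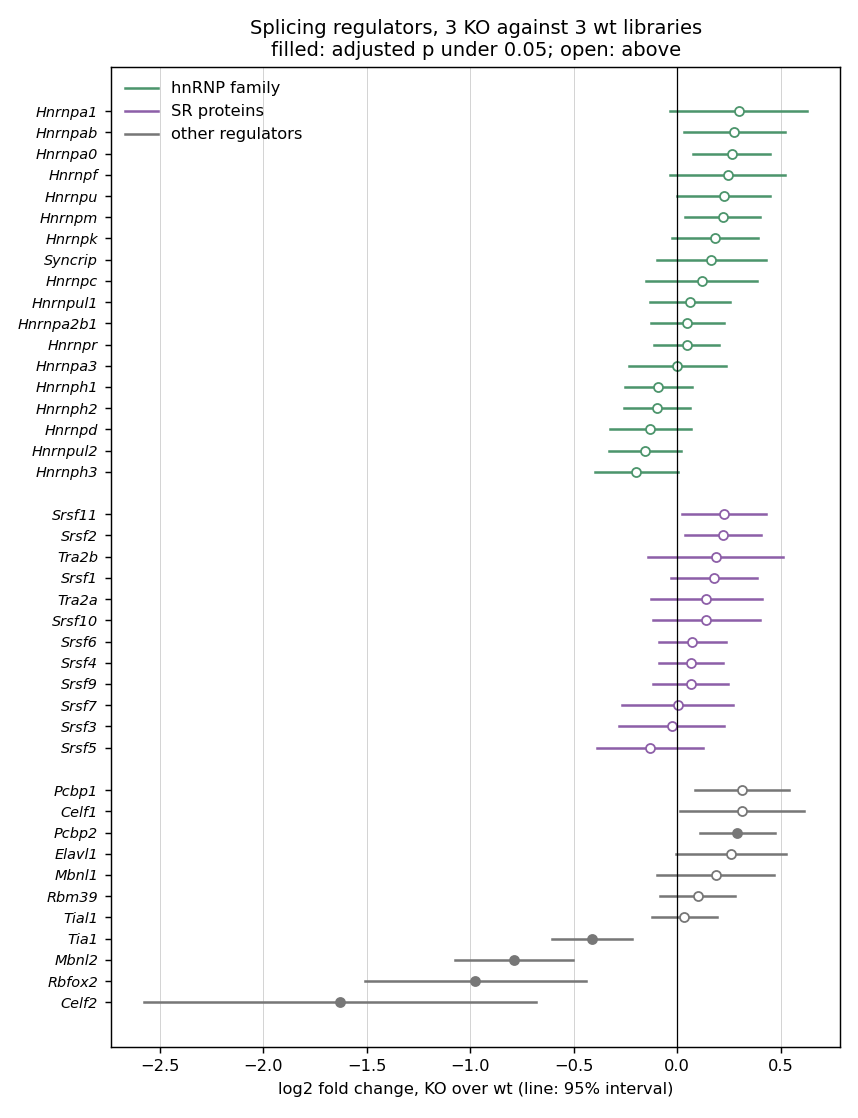
Log2 fold change of each of the 41 splicing regulators, KO over wt (x axis), with its 95% interval from the edgeR fit, grouped by family. Filled points have an adjusted p under 0.05. Values of the 18 hnRNP family genes and 12 SR protein genes lie between -0.20 and 0.30, and the 4 members that were lower lie between -0.41 and -1.63.

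Among hnRNP family genes, log2 fold changes ranged from -0.20 (*Hnrnph3*) to 0.30 (*Hnrnpa1*), and 15 of 18 were within 20% of the wt level. *Hnrnpa1*, a shuttling hnRNP that silences exons, had 933, 676 and 663 CPM in wt 1 to 3 and 953, 900 and 939 CPM in KO 1 to 3. Its wt 1 level lay within the KO range and the groups overlapped (log2 fold change 0.30, 95% interval -0.03 to 0.63, adjusted p = 0.169). Without wt 1 the value was 0.48 (edgeR adjusted p = 0.00676), and with limma-voom it was 0.38 (adjusted p = 0.012). *Hnrnpab* had 1312, 1075 and 1062 CPM in wt and 1442, 1359 and 1379 CPM in KO libraries, without overlap (0.28, 95% interval 0.03 to 0.52, adjusted p = 0.0985), and it passed without wt 1 (edgeR adjusted p = 0.00982) and with limma-voom (adjusted p = 0.00928). *Hnrnpa2b1*, the most abundant member in CPM, had the smallest difference of these (0.05, 95% interval -0.13 to 0.23), which became -0.021 with total counts. The smallest adjusted p of the family was 0.057, for *Hnrnpa0* (483 to 519 CPM in wt, 574 to 634 CPM in KO). Genes such as *Hnrnpa1* and *Hnrnpa3* have many processed copies in the genome, and reads aligned at several places, 39.8 to 44.7% of the entries of the count tables, were not assigned to genes, so the levels of such members are uncertain.

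All 12 SR protein genes were within 20% of the wt level, with log2 fold changes from -0.13 (*Srsf5*) to 0.23 (*Srsf11*). *Srsf2*, an SR protein that stays in the nucleus, had 889, 864 and 963 CPM in wt and 1032, 1064 and 1068 CPM in KO libraries, so that every KO value was above every wt value (0.22, 95% interval 0.04 to 0.40, adjusted p = 0.0859), and DESeq2 gave an adjusted p of 0.0408. *Srsf1*, the prototype SR protein, had 1174, 989 and 1046 CPM in wt and 1232, 1202 and 1199 CPM in KO libraries (0.18, 95% interval -0.03 to 0.39, adjusted p = 0.185), with an adjusted p of 0.0256 in edgeR without wt 1. *Srsf6* was between 636 and 659 CPM in wt and between 682 and 685 CPM in KO libraries (0.07, 95% interval -0.09 to 0.24). Over the 30 hnRNP and SR genes the widest interval bounds were -0.40 and 0.63 on the log2 scale.

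*Celf2*, a regulator with roles in blood and T cell splicing, had 69.6, 186 and 84.2 CPM in wt 1 to 3 and 33.9, 37.5 and 38.4 CPM in KO 1 to 3. The groups did not overlap, and wt 2, the library with the high granulocyte markers, was the highest (log2 fold change -1.63, SE 0.38, adjusted p = 0.0378). Without wt 2 the value was -1.07, with an adjusted p of 0.00238, and without the filter on low counts the adjusted p was 0.0833. *Mbnl2*, a muscleblind protein that promotes adult splicing patterns, had 30.0, 37.5 and 34.9 CPM in wt and 20.9, 20.8 and 17.6 CPM in KO libraries (-0.79, SE 0.12, adjusted p = 0.0146). Its paralog *Mbnl1* was at 613 ± 94.6 CPM in wt and 697 ± 22.8 CPM in KO (n = 3 each, adjusted p = 0.296).

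*Rbfox2*, which binds UGCAUG motifs, was the least expressed member, with 2.25, 3.15 and 2.70 CPM in wt and 1.37, 1.35 and 1.41 CPM in KO libraries (-0.97, SE 0.23, adjusted p = 0.0305). *Tia1*, a stress granule protein that promotes the use of weak 5′ splice sites, had 94.2, 102 and 110 CPM in wt and 72.8, 80.6 and 77.1 CPM in KO libraries (-0.41, SE 0.08, adjusted p = 0.0220). Every KO value of these 4 genes lay below every wt value. The stem and progenitor markers *Cd34* (-2.21) and *Flt3* (-3.35) and the monocyte marker *Csf1r* (-3.24) were lower in the same libraries, and their part in the 4 falls was not tested.

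*Pcbp2*, a poly(C)-binding protein, was the one member that rose, with 703, 634 and 686 CPM in wt and 845, 814 and 816 CPM in KO libraries (0.29, SE 0.08, adjusted p = 0.0414). With total counts its adjusted p was 0.0546, and without the filter 0.0621. Its intronless paralog *Pcbp1* had 601, 499 and 558 CPM in wt and 734, 661 and 669 CPM in KO libraries (0.32, SE 0.10, adjusted p = 0.0598), which missed the threshold and passed it with DESeq2 (adjusted p = 0.0223). *Rbm39*, the third regulator of this group by level, differed little (0.10, 95% interval -0.08 to 0.28). In all, groups did not overlap for 21 members, 14 with KO higher and 7 with KO lower, where 22.7% of all genes did so in each direction.

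**Figure D2:**
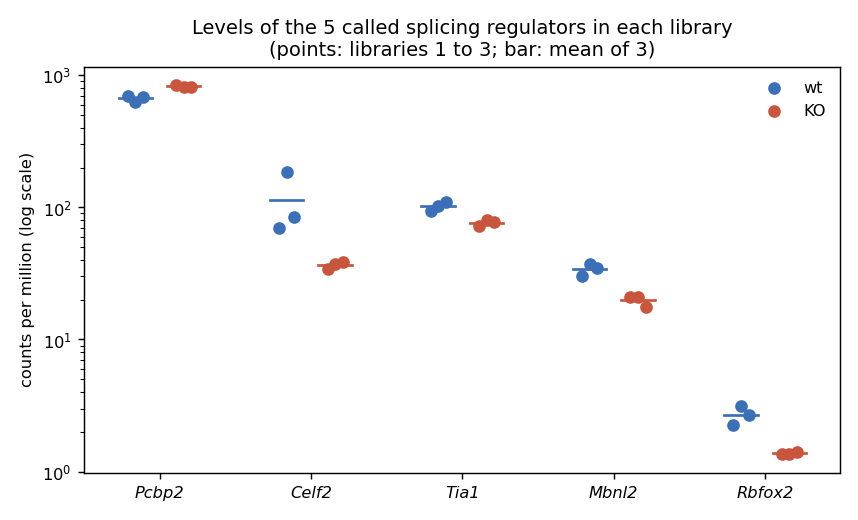
CPM of the 5 members past the threshold (y axis, log scale) in each of the 3 wt and 3 KO libraries, with a bar at each group mean. *Pcbp2* was higher in every KO library, and *Celf2*, *Tia1*, *Mbnl2* and *Rbfox2* were lower in every KO library than in any wt library, with wt 2 highest for *Celf2* (186 CPM).

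The number of calls depended on single libraries, for all genes as for the members. Leaving out wt 3, KO 1, KO 2 or KO 3 left no member past the threshold in edgeR, with smallest adjusted p of 0.0544 to 0.0927 (11, 5, 7 and 7 members at an unadjusted p under 0.05). Those fits called only 5, 17, 8 and 7 of all genes, so that the zeros say nothing particular to the members. Leaving out wt 1 gave 19 members, 15 of them higher, where 32.4% of all genes passed. DESeq2 on all libraries gave 9 members, with the 5 among them, where 27% of all genes passed, and limma-voom gave 19, where 37.2% did.

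Companion lists of genes that act beside the members were read from the same fit. Of 8 kinases that phosphorylate SR proteins or splicing factors, 1 passed (12.5%, against 19.2% of all genes). *Srpk2*, an SR protein kinase, fell from 41.8, 67.9 and 45.8 CPM in wt to 32.5, 33.7 and 32.8 CPM in KO libraries (-0.65, adjusted p = 0.0443), with wt 2 again the highest, and without wt 2 its value was -0.41 (edgeR adjusted p = 0.013). Of 48 tested further RNA-binding regulators (8 more had too few reads), 4 rose and 2 fell (12.5% in all, against 19.2% of all genes). *Esrp2*, an epithelial splicing regulator, rose from 0.270, 0.350 and 0.482 CPM to 1.34, 1.13 and 1.42 CPM (1.81, adjusted p = 0.0190), and *Fubp1*, a single-strand nucleic acid-binding protein, from 400, 317 and 381 CPM to 537, 544 and 570 CPM (0.59, adjusted p = 0.0170). *Rbm47* fell from 0.684, 2.20 and 0.633 CPM to 0.124, 0.337 and 0.268 CPM (-2.26, adjusted p = 0.0492), and without wt 2 its value was -1.43 and its adjusted p 0.084. *Msi2*, a Musashi protein of stem and progenitor cells, fell from 106, 85.5 and 108 CPM to 75.6, 77.7 and 74.3 CPM (-0.40, adjusted p = 0.0359).

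Of 10 factors of NMD, the pathway that degrades transcripts with poison exons, 4 rose and 1 fell, a share of 50% beside the 19.2% of all genes. *Smg9* was at 49.4, 42.4 and 53.0 CPM in wt and at 66.6, 66.8 and 68.4 CPM in KO libraries (0.48, adjusted p = 0.0211), and *Smg8*, which with SMG9 binds the kinase SMG1, at 47.9, 42.3 and 47.6 CPM and at 65.1, 58.7 and 58.5 CPM (0.40, adjusted p = 0.0239). *Upf1* and *Smg5* were the other 2 that rose. *Smg6*, the endonuclease of the pathway, fell from 70.7, 67.6 and 73.5 CPM to 57.9, 57.8 and 56.8 CPM (-0.30, adjusted p = 0.0266). The count was 0 for each of the companion lists in the same edgeR fits that called 5 to 17 of all genes, those without wt 3 or any one KO library.

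Exon usage was compared to learn whether the regulators' own transcripts were spliced differently. The 41 genes had 1038 of the 355320 exon bins. In 4 cases (*Hnrnpa3*, *Hnrnpm*, *Hnrnpu* and *Syncrip*) the bins were merged with those of an overlapping gene, so that reads could not be assigned to one gene, and these are given apart. Of their 180 tested bins none passed an adjusted p under 0.05 and 13 (7.22%) had an unadjusted p under 0.05, 10 of them in the unit of *Hnrnpm*, 2 in that of *Syncrip* and 1 in that of *Hnrnpa3*. Of the 10 in *Hnrnpm* 8 were lower in KO, and all were low-count bins as defined below. In a merged unit a change in the expression of one gene also appears as a change in bin usage. The 2 were not told apart here. The other 37 genes had 845 bins, of which 781 had a mean of at least 10 reads and were tested (edgeR diffSpliceDGE, which compares the change of a bin with that of its gene). None passed an adjusted p under 0.05, a level that 0.0288% of all 176996 bins reached, and the smallest adjusted p was 0.219. At an unadjusted p under 0.05 there were 18 (2.3% of those tested), against 1.03% of all bins. With limma diffSplice 5 and with the DEXSeq model fitted by DESeq2 9 member bins had an adjusted p under 0.05, where 0.123% and 0.34% of all bins did. These were bin 1 of *Hnrnpd* and of *Tial1*, bin 21 of *Srsf1* and bin 24 of *Srsf10* in both, *Hnrnpk* bin 42 with limma, and *Tra2b* bin 14, *Srsf10* bin 23, *Tial1* bins 2 and 3 and *Hnrnpul1* bin 9 with the DEXSeq model. In edgeR without wt 2, *Tial1* bins 1 and 20 and *Hnrnpd* bin 1 passed (adjusted p = 0.00213, 0.00175 and 0.0242), and without wt 1 *Tial1* bin 1 (adjusted p = 0.0188).

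Low-count bins, defined as those under 20% of the 75th percentile of the bins of their gene, served as the sparsely covered stretches among which poison exons and retained introns would lie. Levels were not divided by length, so that short coding bins count as well, as *Rbm39* bin 2 of 3 bases does. Of 286 such bins 237 were tested. Their median log2 change in usage was 0.03, against 0.10 over all low-count bins. An unadjusted p under 0.05 was reached by 12, or 5.06%, against 3.96% of all 23779 tested low-count bins. By the looser rule of an unadjusted p under 0.01 and more than 2-fold change 3 member bins passed (0.384%). Each was low-count, which makes 1.27% of the tested low-count member bins. This rule was met by 0.249% of all bins and by 0.955% of all low-count bins. Levels of bins are given as bin CPM, the reads per 1000000 reads on bins.

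*Srsf10* encodes an SR-like protein that acts as a repressor in its dephosphorylated form. Its bin 7, the intron stretch printed above, held 8, 7 and 47 reads in wt 1 to 3 and 60 and 81 reads in KO 2 and 3. The groups did not overlap, but wt 3 lay much nearer to the KO libraries than to the other wt libraries (log2 change 1.51, SE 0.53, unadjusted p = 0.00862, range 1.06 to 2.74 when single libraries were left out). *Hnrnpk* encodes a poly(C)-binding hnRNP. Its bin 42 held 302, 276 and 620 reads in wt and 841 and 898 reads in KO libraries, with wt 3 again between (0.81, SE 0.17, unadjusted p = 0.00199). The other 8 tested retained intron bins of *Hnrnpk* had values between -0.46 and 0.47.

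*Hnrnpd*, whose product AUF1 binds AU-rich elements, had 452, 451 and 590 reads on bin 1 in wt and 239 and 257 in KO libraries, the most uniform of these differences (-1.06, SE 0.23, unadjusted p = 0.000402). This bin is at the 3′ end of the gene. *Tial1*, the paralog of *Tia1*, had 2.28, 1.22 and 2.62 bin CPM on bin 20 in wt and 1.00 and 1.07 bin CPM in KO libraries, with wt 2 close to the KO values (-1.05, SE 0.31, unadjusted p = 0.00410). *Hnrnpul1* bin 9 held 7, 7 and 6 reads in wt and 34 and 24 in KO libraries (1.91, unadjusted p = 0.0112), and *Rbm39* bin 2, of 3 bases, 77, 100 and 46 reads in wt and 41 and 34 in KO libraries (-1.33, unadjusted p = 0.0119). In the merged unit of *Hnrnpm*, 1 further bin passed the looser rule (bin 35, with 88, 74 and 112 reads in wt and 254 and 239 in KO libraries, 1.11, unadjusted p = 0.00337), and its adjusted p was under 0.05 with limma diffSplice and with the DEXSeq model.

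The following bins were chosen after their values were seen. *Srsf10* has alternative 3′ terminal exons. Its last bin, 24, was at 23.5, 22.8 and 19.2 bin CPM in wt and at 13.9 and 13.2 bin CPM in KO libraries (-0.83, SE 0.22, unadjusted p = 0.000591), and bin 23 before it at 28.9, 21.3 and 21.0 and at 19.2 and 18.7 (-0.47, unadjusted p = 0.0508). Bin 22, the end of the proximal alternative, was at 61.4, 52.1 and 52.1 and at 70.7 and 70.0 (0.21, unadjusted p = 0.387). *Tra2b* bins 14, 15, 17 and 18 had values of -0.98, -0.56, -0.47 and -1.23, none with an adjusted p under 0.05 in edgeR, and bin 14 had an adjusted p of 0.00559 with the DEXSeq model. Bin 17, the AGAA-rich exon printed above, was at 6.23, 2.69 and 3.71 bin CPM in wt and at 3.59 and 3.16 in KO libraries, so that the groups overlapped and wt 1 stood highest (unadjusted p = 0.0939).

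**Figure D3:**
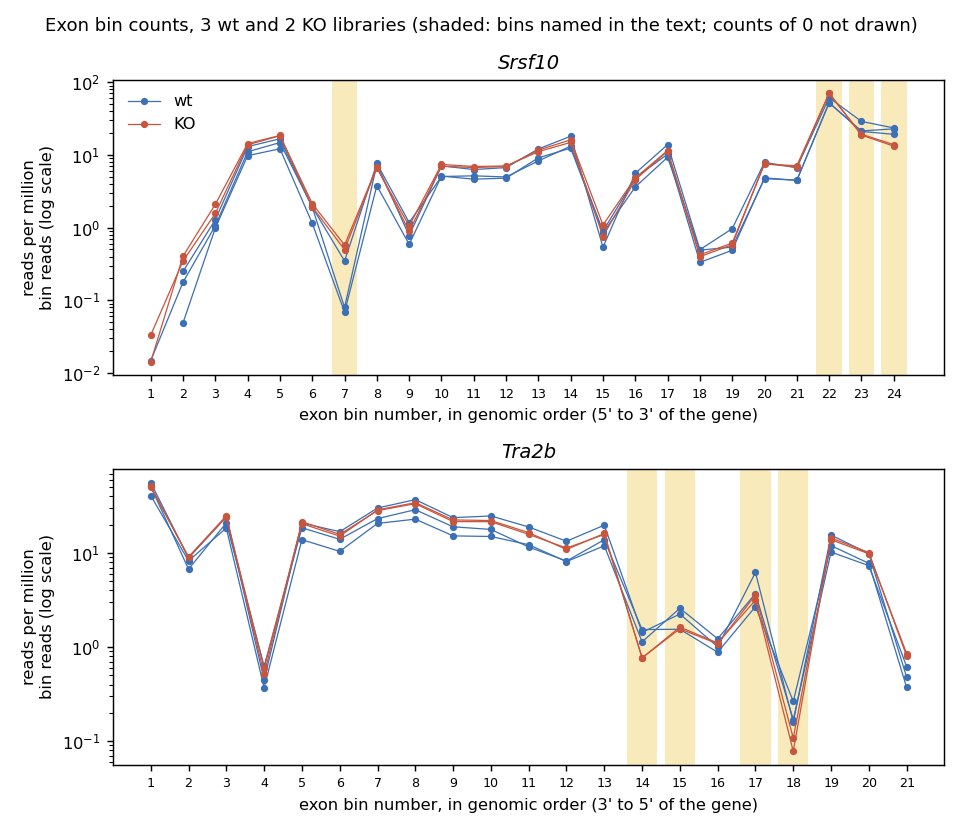
Bin CPM (y axis, log scale) on each exon bin of *Srsf10* and *Tra2b* (x axis, in genomic order) in 3 wt and 2 KO libraries. In *Srsf10* the KO lines lie above on bin 7 and below on bins 23 and 24, and in *Tra2b* both KO lines lie below all wt lines on bins 14 and 18.

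The 3′ most tested bin was lower in usage in KO in 23 of 34 members (67.6%), a share close to the 74% of all 10075 genes with at least 3 tested bins. The 5′ most tested bin was lower in 38.2% of these members and in 35.4% of all these genes. The part of this difference between gene ends in the changes of single end bins was not tested. With an unadjusted p under 0.05 the 3′ most bin was lower in 5 members, in *Hnrnpd*, *Tial1*, *Srsf10*, *Srsf1* and *Rbm39* (14.7%, against 1.77% of all genes), and higher in none. This count was not planned, and the same 5 bins are among the member bins of smallest p, so it is a description. *Tial1* bin 1 was at 9.76, 13.2 and 10.3 bin CPM in wt and at 6.62 and 5.27 in KO libraries (-0.98, SE 0.21, unadjusted p = 0.000102), the smallest p of all member bins. *Srsf1* bin 21 was at 82.7, 82.6 and 73.3 bin CPM in wt and at 59.5 and 57.9 in KO libraries (-0.59, SE 0.17, unadjusted p = 0.0149). Members had more reads per bin than other genes (median 1053 against 208 per tested bin), and the part of depth in this count was not tested.

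For 23 members the bins could be rebuilt from the annotation, which gave each bin the kind of transcript it lies in. Of the 9 tested bins that lie only in NMD transcripts (5 in *Rbm39*, 2 in *Srsf4*, 1 each in *Srsf6* and *Tia1*), none had an unadjusted p under 0.05, and values were between -0.20 and 0.43. Over all genes 5.12% of such bins did, so that 9 bins are too few to tell a difference. *Srsf4* bin 4, which holds the stop codon printed above, had the highest, with 2.54, 2.14 and 2.17 bin CPM in wt and 3.11 and 3.02 in KO libraries, without overlap (0.43, SE 0.17, unadjusted p = 0.166). *Srsf6* bin 6 was at 9.70, 13.7 and 11.4 and at 13.2 and 12.2 bin CPM (0.08, SE 0.16), a value that turned to -0.030 without wt 1.

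Bins that lie only in retained intron transcripts had a positive value in 15 of 41 tested cases (36.6%), where 60.6% did over all genes, and those of other noncoding transcripts in 18 of 52 (34.6%, against 58.8%). Bins of 1 gene share its reads, and 14 of the 41 lie in *Tia1*, so these shares are a description. An unadjusted p under 0.05 was reached by 3 of the 41 retained intron bins (7.32%), against 3.94% over all genes. *Rbm39*, which encodes a U2AF-like coactivator, had 2 of these 3, its bin 51 at 5.81, 5.29 and 7.05 bin CPM in wt and at 4.60 and 4.04 in KO libraries (-0.56, SE 0.16).

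**Figure D4:**
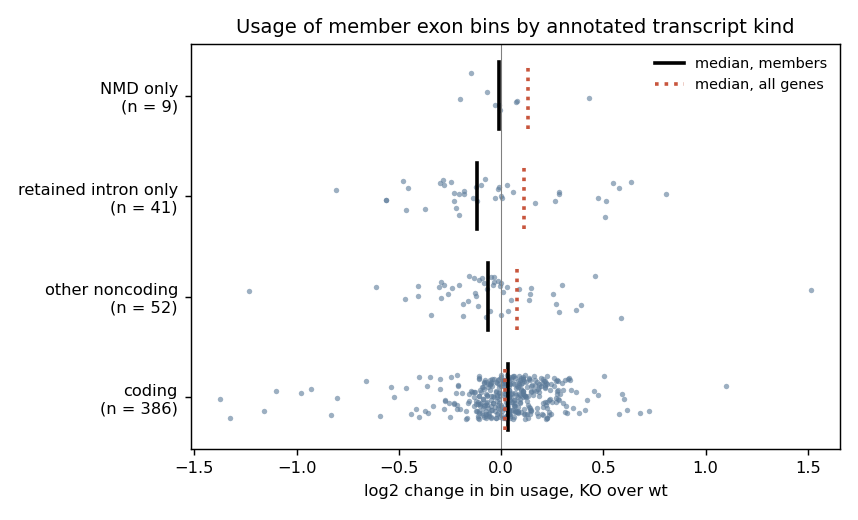
Log2 change in usage, KO over wt (x axis), of the tested bins of 23 members by the kind of transcript in which each bin lies. Black lines mark the median of the members and dotted lines that of all genes. In retained intron bins the members' median was -0.12 and that of all genes 0.11, and in coding bins 0.04 and 0.02.

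As a summary per gene, the share of reads on low-count bins was computed for the 31 members with such bins and at least 100 reads. It ranged from 0 to 8.87%, with a median over members of 2.88% in wt and 2.74% in KO. Values for KO were above wt in 20 members and below in 11, with a median difference of 0.09 percentage points, and of 0.09 over all 8113 genes. In 26 members the groups overlapped. They did not overlap with KO higher in 3 (*Srsf5*, *Hnrnpr* and *Hnrnpul1*), where 18.6% of all genes did so, and with KO lower in 2 (*Tra2b* and *Hnrnpf*), where 5.47% did. *Srsf5*, an SR protein of the early growth response, had 2.12, 2.20 and 2.35% in wt and 2.68 and 2.75% in KO libraries. *Tra2b* had 3.61, 3.03 and 4.36% in wt and 2.81 and 2.67% in KO libraries. For 3 libraries against 2 the smallest p of an exact test is 0.2, and none was run. In 18 of the 31 members wt 3 had the highest wt share. Without wt 3 the count with KO higher was 12, but fewer libraries make an overlap less likely for any gene. The share of all genes without wt 3 is not given here, so the 12 is no result about the members.

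**Figure D5:**
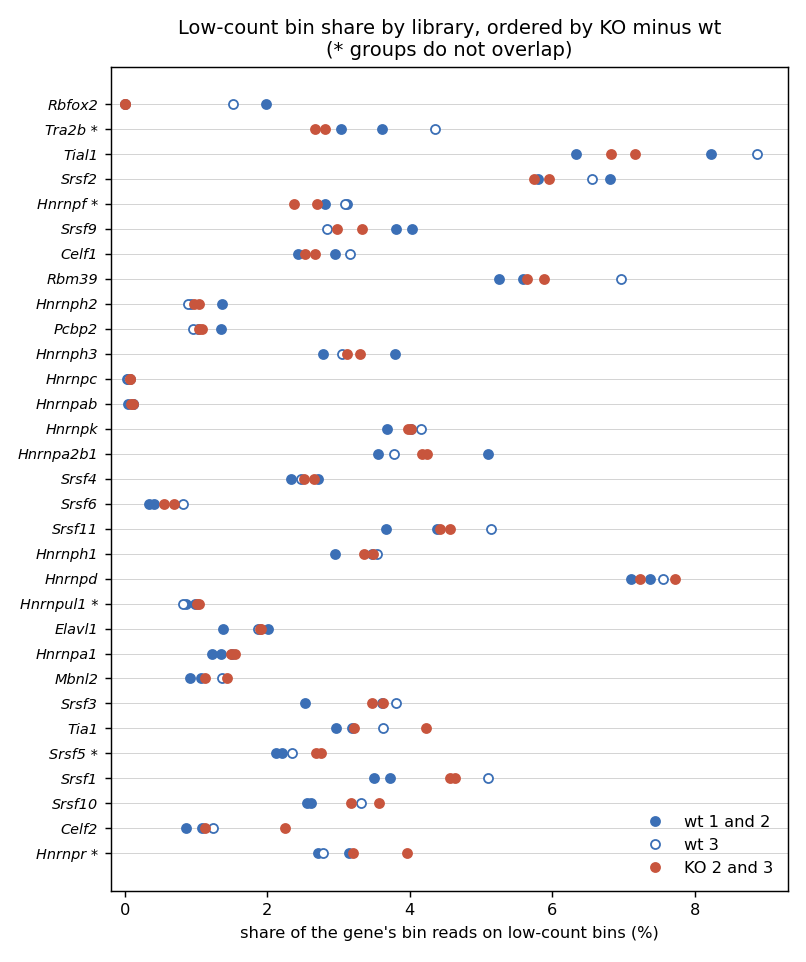
Share of the reads of each member on its low-count bins (x axis, %) in wt 1 and 2, wt 3 (open) and KO 2 and 3, ordered by the difference between groups. Asterisks mark the 5 members whose groups do not overlap, and the differences run from -1.16 percentage points (*Rbfox2*) to 0.70 (*Hnrnpr*). The value of *Rbfox2* rests on few reads (a mean of 191 on all its bins), with shares of 1.97, 0 and 1.52% in wt 1 to 3 and 0% in KO 2 and 3.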

How the data were processed

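The authors prepared TruSeq stranded mRNA libraries, aligned the reads to GRCm38 with TopHat2 2.0.10, and deposited raw counts, those of genes made with HTSeq and those of exon bins with the DEXSeq script. The strand setting of the counting is not given in the sources used here. In the bin counts a read can fall on several bins. Gene counts were tested with edgeR 4.0.16 (TMM, default filter, robust quasi-likelihood test, R 4.3.3), and bins with diffSpliceDGE. Intervals are 95%. Replicates are embryos, numbered in the order of the labels and not paired, and p-values measure the spread between them. Depth left counting error small for most genes named. Both tests were checked on simulated data. Alternatives were DESeq2 1.42.0, limma 3.58.1 (voom with sample weights for genes, diffSplice for bins), other scalings and filters, and leaving out each library.

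Members and lists were chosen with earlier results of these data known. Genes named were every member past the threshold and the 3 highest per family by CPM per kilobase, in the companion lists the 2 largest rises and falls among genes past the threshold, and for bins those that passed a rule and the 6 low-count bins of smallest p. Bins were rebuilt by flattening an early subset of GENCODE vM21 transcripts, which gave the deposited number of bins in 31138 of 34765 single-gene units. Where the numbers differed no positions were used.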

Additional observations from a re-analysis of the deposited data

How the results depend on the processing

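Members higher in KO were 1 in the main test, 5 with DESeq2, 15 with limma-voom, 0 with total counts and 0 without a filter, and 0 to 15 when single libraries were left out, with 15 without wt 1. Members lower in KO were 4, and 0 to 4 without single libraries. SR protein kinases past the threshold were 1, 2 with limma-voom, and 0 to 2 without single libraries. Further RNA-binding regulators were 6, 18 with limma-voom, and 0 to 18. NMD factors were 5, 3 without a filter, and 0 to 7. Member bins with an adjusted p under 0.05 were 0, 5 with limma diffSplice, 9 with the DEXSeq model, and 0 to 3 without single libraries, and low-count bins among them were 0, 2, 4 and 0 to 2. Counting merged units, an alternative chosen after seeing the data, left 0. Members with a low-count share that did not overlap were 3 with KO higher (5 at a limit of 50%, 6 to 12 without single libraries) and 2 with KO lower (4 at a limit of 10%, 2 to 5 without single libraries), and fewer libraries make an overlap less likely by construction. In the 23 rebuilt members, scaling to reads per base moved these from 0 to 1 and from 1 to 7. Shares over all genes are not given for these alternatives of the low-count share. Their counts are therefore descriptions, and whether they exceed those of other genes cannot be judged. The cause of the other changes was not tested. Of 28 genes and 21 bins followed through the alternatives, *Hnrnpa2b1* (to -0.021 with total counts) and *Srsf6* bin 6 (to -0.030 without wt 1, range -0.030 to 0.17 without single libraries) turned their direction, and neither had passed the test. The edgeR fits without wt 3 or one KO library called 0.0341 to 0.115% of all genes, against 19.2% in the main test, with median prior degrees of freedom of 2.36 to 3.36 against 3.14. No paired analysis was possible because the replicate numbers only name the libraries. With total counts the median of all genes was -0.10 on the log2 scale, against -0.03.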

Other observations

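Over the 23 members with rebuilt bins, reads on retained intron bins made up 0.651, 0.779 and 0.928% of all bin reads in wt 1 to 3 and 0.731 and 0.721% in KO 2 and 3. Reads on bins of NMD transcripts made up 0.158, 0.192 and 0.207% and 0.194 and 0.178%. In both kinds the KO values lay within the wt range, with wt 1 lowest and wt 3 highest. Reads on bins of other noncoding transcripts made up 1.72, 1.81 and 2.09% in wt and 1.65 and 1.62% in KO libraries, so that both KO values lay below every wt value. Over all genes with rebuilt bins this share was 0.845, 0.905 and 1.04% in wt and 0.903 and 0.899% in KO libraries. Over all genes with rebuilt bins the retained intron share was 0.600, 0.653 and 0.706% in wt and 0.706 and 0.696% in KO libraries.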
